A study of Arabidopsis thaliana with 22 samples.

Results

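A set of 10 genes that act in the G2 phase, in mitosis and in cytokinesis were followed in the roots of Arabidopsis thaliana, and their levels are described in wild type and in the myb67 mutant. They were chosen by name and identifier from the table of gene counts. The 10 genes, of 33323 in the table, are the B-type cyclins CYCB1;1 (AT4G37490), CYCB1;2 (AT5G06150), CYCB1;3 (AT3G11520) and CYCB2;3 (AT1G20610), the A-type cyclin CYCA1;1 (AT1G44110), the B-type cyclin-dependent kinases CDKB1;1 (AT3G54180) and CDKB2;1 (AT1G76540), the syntaxin KNOLLE (AT1G08560), the activator CDC20.1 (AT4G33270) and the Aurora kinase AUR1 (AT4G32830). All 10 passed the filter on low counts, which kept 21683 genes. Seedlings of Col-0 (WT) and of myb67-1, a mutant labelled as carrying its lesion in a Col-0 background, grew untreated and side by side on plates for 14 days. The upper 1.5 cm of the primary root was taken without lateral roots, from about 40 seedlings per sample. There were 22 libraries, with 6 WT and 6 myb67 libraries in a first experiment and 5 and 5 in a second. MYB67 encodes a transcription factor of the R2R3 class of MYB proteins, and the study asked which genes it regulates.

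In plants the step from G2 into mitosis is driven by A-type and B-type cyclins bound to cyclin-dependent kinases, among them the plant-specific CDKB class. Genes of this step tend to be transcribed in the same short window of the cell cycle, many of them through MYB3R transcription factors that bind the mitosis-specific activator (MSA) element. Once chromosomes are attached, CDC20 proteins switch on the anaphase-promoting complex, which marks B-type cyclins for destruction, and KNOLLE then serves vesicle fusion at the new cell plate. In an upper root without its lateral roots, dividing cells are known in the vascular cambium, the pericycle and early lateral root primordia.

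The core of the MSA element, AACGG, is shown in the 250 bases before the annotated start of 3 of the genes, because the MYB3R genes known to bind it are described with the members further on. The windows were read 5′ to 3′ on the strand of the gene from the RefSeq assembly TAIR10.1 and its annotation, and capitals mark AACGG or, where it lies on the opposite strand, CCGTT. They hold 4, 3 and 2 copies, in the order shown.
CYCB1;2 (chr5:1861704-1861953, minus strand): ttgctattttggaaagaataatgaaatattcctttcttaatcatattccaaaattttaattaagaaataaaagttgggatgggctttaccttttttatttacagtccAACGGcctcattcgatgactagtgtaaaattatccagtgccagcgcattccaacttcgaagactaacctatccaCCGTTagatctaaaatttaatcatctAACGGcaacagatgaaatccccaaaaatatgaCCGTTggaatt
CYCB2;3 (chr1:7137829-7138078, minus strand): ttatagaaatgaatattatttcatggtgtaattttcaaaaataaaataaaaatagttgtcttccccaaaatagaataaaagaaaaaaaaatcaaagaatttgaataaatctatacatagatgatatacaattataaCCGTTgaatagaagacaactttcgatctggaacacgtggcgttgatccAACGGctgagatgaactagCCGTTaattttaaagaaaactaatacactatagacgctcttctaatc
CYCA1;1 (chr1:16777353-16777602, minus strand): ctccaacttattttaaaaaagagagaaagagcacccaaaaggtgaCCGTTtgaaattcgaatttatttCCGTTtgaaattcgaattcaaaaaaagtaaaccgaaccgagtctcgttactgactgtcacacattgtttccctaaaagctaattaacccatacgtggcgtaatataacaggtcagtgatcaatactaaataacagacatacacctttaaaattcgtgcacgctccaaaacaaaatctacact
Read on both strands, AACGG was present in the windows of 7 of the 10 members (70%), against 20.6% of 27437 protein-coding genes. At least 2 copies were present in 5 members (50%), against 3.62% of all genes. The longer form CNAACGG, which contains AACGG, was present in 5 members (50%), against 4.50% of all genes. In the first of these windows the 4 copies began 143, 69, 43 and 11 bases before the start, and all 4 were of the longer form. CYCB1;1 and CYCB1;3, whose windows are not shown, were also among the 5 members with at least 2 copies, so these 5 were the cyclins of the set. The windows of KNOLLE and AUR1 held 1 copy each, and those of CDKB1;1, CDKB2;1 and CDC20.1 held none. The E2F-type motif TTCCCGC, searched on both strands, was present in no member and in 1.21% of all genes. A match describes letters in a window and is not a measured site. The members were chosen as genes of mitosis, the class in which the MSA element is known, so these shares do not test it.

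Libraries of experiment 1 totalled between 3705515 and 17727642 counts, and those of experiment 2 between 23190477 and 32091009. The 10 genes together took 691.5 to 5131 counts of a library in the first and 10875 to 15376 in the second. WT replicate 1 of experiment 1 stood apart: 1 ribosomal RNA gene took 27.7% of its counts, against at most 1.75% in any other library, and its scaling factor was 0.709. In WT replicates 3 and 6 of experiment 1, 10 photosynthesis genes, the markers of green tissue below, summed to 1270 and 1820 CPM. CPM are counts scaled to a common library total. For the same markers the rest of experiment 1 lay between 282 and 444 CPM, and experiment 2 lay between 2010 and 3530 CPM. Whether these transcripts came from green tissue was not tested. In experiment 1 the level of MYB67 itself (AT3G12720) was 6.58 ± 0.437 CPM for WT against 11.5 ± 1.66 CPM for myb67 (SD over 6 libraries each), and in experiment 2 it was 10.6 ± 2.79 CPM against 18.0 ± 3.68 CPM (SD over 5 each). It was thus higher in the libraries labelled myb67 (log2 fold change 0.79, SE 0.11, adjusted p = 6.89e-05 by the quasi-likelihood test of edgeR), and the sources used here do not say where the lesion lies. Levels below are CPM after scaling of each library by the trimmed mean of M values (TMM), and a gene was called at an adjusted p under 0.05 over all 21683 genes. In bulk tissue, fewer dividing cells and less RNA per dividing cell cannot be told apart.

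Among the B-type cyclins, CYCB1;2 was the most abundant per length of transcript. In experiment 1 it ran from 32.8 to 40.4 CPM in WT (median 36.3) and from 32.0 to 42.1 CPM in myb67 (median 36.1). In experiment 2 the 5 WT libraries held 71.1, 65.0, 61.0, 65.1 and 61.4 CPM and the 5 myb67 libraries 66.1, 67.6, 64.3, 64.9 and 63.5 CPM. The genotypes overlapped in both experiments, and every library of experiment 2 lay above every library of experiment 1. CYCB1;1, whose promoter is the common reporter of cells in G2 and M and which is also known to respond to DNA damage, ran from 12.6 to 16.0 CPM in WT (median 15.0) and from 10.9 to 15.7 CPM in myb67 (median 13.8) in experiment 1. In experiment 2 it stood at 21.1, 18.2, 18.4, 18.3 and 17.5 CPM in WT and at 18.3, 18.7, 19.5, 18.5 and 15.9 CPM in myb67. The highest library was WT replicate 1 of experiment 2, and 9 of the 10 libraries of experiment 2 lay above the highest of experiment 1. CYCB1;3, of the same B1 group, ran from 14.8 to 18.3 CPM in WT (median 17.2) and from 15.2 to 21.1 CPM in myb67 (median 17.4) in experiment 1. Its libraries of experiment 2 held 21.8, 21.7, 22.4, 21.6 and 20.3 CPM in WT and 19.7, 22.3, 21.2, 20.5 and 20.6 CPM in myb67, and only 6 of those 10 exceeded the highest of experiment 1. CYCB2;3, of the B2 group, ran from 17.1 to 23.5 CPM in WT (median 20.6) and from 18.9 to 24.1 CPM in myb67 (median 20.5) in experiment 1. In experiment 2 it held 23.4, 20.9, 19.0, 22.1 and 22.2 CPM in WT and 22.9, 21.4, 19.3, 22.3 and 19.7 CPM in myb67. None of the 10 libraries of experiment 2 exceeded the highest of experiment 1 for this cyclin, so all 4 groups overlapped.

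CYCA1;1, an A-type cyclin of the G2 and M phases, ran from 14.5 to 22.9 CPM in WT (median 20.6) and from 16.0 to 23.9 CPM in myb67 (median 20.3) in experiment 1. In experiment 2 it measured 51.9, 42.3, 44.4, 38.5 and 39.8 CPM in WT and 45.0, 45.7, 42.9, 40.6 and 38.7 CPM in myb67. The genotypes overlapped and the experiments did not, and the lowest value was in WT replicate 1 of experiment 1, the library rich in ribosomal RNA. Of the kinases, CDKB1;1, known for its part in the divisions of the stomatal lineage and as a partner of CYCB1;1, ran from 12.2 to 19.9 CPM in WT (median 17.1) and from 15.8 to 18.7 CPM in myb67 (median 17.3) in experiment 1. Its libraries of experiment 2 held 30.8, 27.7, 27.8, 20.8 and 21.7 CPM in WT and 30.6, 28.4, 25.2, 26.3 and 21.9 CPM in myb67, which gave it the widest spread between WT libraries of the 10 genes in that experiment (coefficient of variation 16.8%). CDKB2;1, a kinase of G2 and M needed for meristem function, ran from 38.1 to 45.2 CPM in WT (median 42.7) and from 39.5 to 44.8 CPM in myb67 (median 43.0) in experiment 1. In experiment 2 it measured 74.7, 67.9, 72.7, 65.7 and 63.3 CPM in WT and 75.5, 78.6, 76.4, 67.3 and 66.3 CPM in myb67. Both kinases overlapped between the genotypes and were higher in each library of experiment 2 than in any of experiment 1.

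KNOLLE, the syntaxin of the cell plate, had the highest level per length of the 10 genes. It ran from 45.7 to 56.6 CPM in WT (median 52.7) and from 47.8 to 54.4 CPM in myb67 (median 52.5) in experiment 1. In experiment 2 it measured 107, 102, 97.5, 87.4 and 92.4 CPM in WT and 104, 100, 102, 99.5 and 92.2 CPM in myb67. The experiments did not overlap and the genotypes did. CDC20.1, the activator of the anaphase-promoting complex, ran from 29.5 to 36.3 CPM in WT (median 31.1) and from 28.4 to 38.5 CPM in myb67 (median 32.4) in experiment 1. Its libraries of experiment 2 held 62.0, 54.4, 56.7, 59.0 and 56.6 CPM in WT and 59.3, 57.2, 57.1, 55.6 and 56.4 CPM in myb67. These were among the closest replicates of any member, with a coefficient of variation of 2.44% in myb67. AUR1, a kinase of the spindle and the cell plate that is known to orient formative divisions, ran from 17.9 to 24.0 CPM in WT (median 21.2) and from 18.5 to 24.3 CPM in myb67 (median 20.6) in experiment 1. In experiment 2 it held 39.8, 31.7, 33.4, 31.9 and 33.4 CPM in WT and 34.9, 34.5, 31.9, 32.7 and 29.8 CPM in myb67. WT replicate 1 of experiment 2 was the highest library for AUR1, as it was for CYCB1;1, CYCB1;2, CYCA1;1, CDKB1;1, KNOLLE and CDC20.1.

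**Figure D1:**
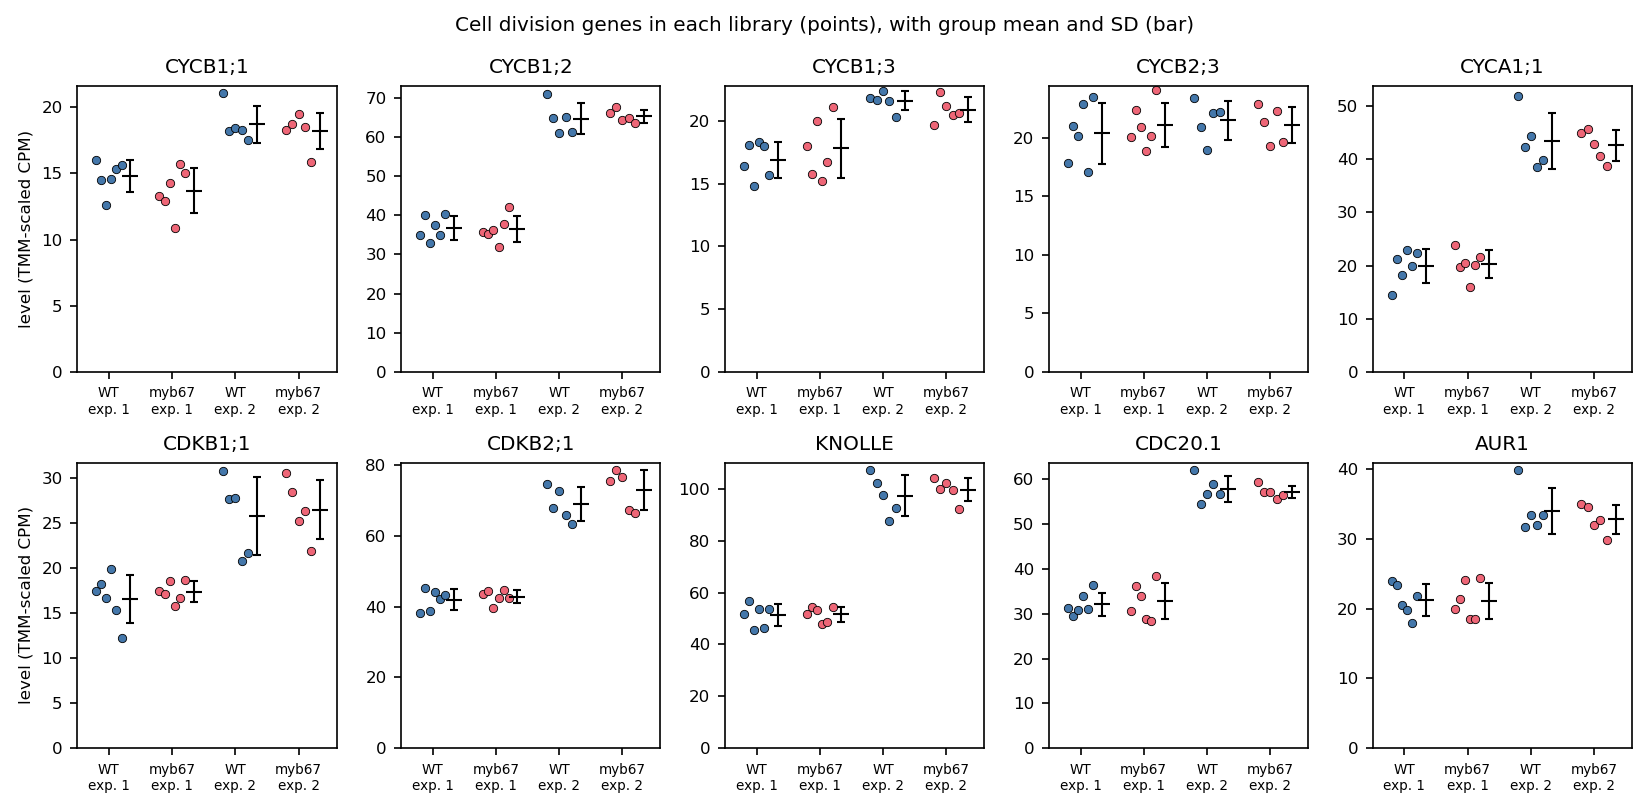
Levels of the 10 genes in each of the 22 libraries, as TMM-scaled CPM on an axis from 0, by genotype and experiment, with the mean and SD of each group beside the points. The genotypes overlap in every panel and both experiments, and KNOLLE spans 45.7 to 56.6 CPM in WT of experiment 1 against 87.4 to 107 CPM in WT of experiment 2.

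Per kilobase of exon, the order of the levels was led by the same 4 genes in all 4 groups. In WT of experiment 1, KNOLLE measured 37.0 ± 3.14 CPM per kb (SD, n = 6), followed by CDKB2;1 at 30.6 ± 2.14 CPM per kb, then CYCB1;2, and CDC20.1 at 15.3 ± 1.20 CPM per kb. The next level, 14.1 ± 1.52 CPM per kb for AUR1, was within the SD of that of CDC20.1, whereas CDKB1;1 at 12.1 ± 1.92 CPM per kb lay more than 1 SD below AUR1. From CDKB1;1 down, each neighbour was within the SD of the one above it, to 9.08 ± 0.736 CPM per kb for CYCB1;1. In WT of experiment 2, KNOLLE measured 70.2 ± 5.62 CPM per kb (SD, n = 5), CDKB2;1 50.4 ± 3.48, CYCB1;2 35.4 ± 2.21 and CDC20.1 27.5 ± 1.37 CPM per kb. CYCA1;1 came next there, at 23.8 ± 2.90 CPM per kb, within the SD of AUR1 at 22.5 ± 2.19 CPM per kb. CYCB2;3 was the lowest at 10.7 ± 0.813 CPM per kb and lay within the SD of CYCB1;1 at 11.5 ± 0.844 CPM per kb.

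The genotype made no detectable difference to the 10 genes. Over both experiments 0 of the 10 was called and 0 reached an unadjusted p under 0.05 in edgeR, where 1.50% of all genes tested were called, and DESeq2 and limma-voom also called 0 of the 10. The log2 fold changes of myb67 over WT ran from -0.06 for CYCB1;1 to 0.05 for CDKB1;1 and CDKB2;1, with a median of 0.01 against 0 for all genes. The smallest p was that of CDKB2;1 (log2 fold change 0.05, SE 0.04, 95% interval -0.03 to 0.14, edgeR adjusted p = 0.973). The 95% intervals of all 10 genes lay between -0.18 and 0.21, and their outermost ends were 0.882-fold for CYCB1;1 and 1.16-fold for CDKB1;1. For KNOLLE the interval was 0.956-fold to 1.08-fold, and for CYCB1;2 it was 0.941-fold to 1.07-fold. The intervals bound each gene singly and do not show that the genotypes are equal.

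Within experiment 1, 0 of the 10 genes was called, against 0.623% of all genes, and the log2 fold changes ran from -0.08 to 0.07. Within experiment 2, 0 was called, against 1.33% of all genes, and the values ran from -0.06 to 0.08. In both experiments 0 of the 10 had an unadjusted p under 0.05 in edgeR. The difference of the genotype effects between the experiments was called for 0 of the 10, against 0.0692% of all genes, and ran from -0.12 for CYCB1;3 to 0.05 for CDKB2;1. Same-numbered libraries of experiment 2 were taken as paired from the correlation of their deviations. With the number as a block there, the count of all genes called in experiment 2 grew from 288 to 1050. In that fit the 10 genes ran from -0.05 to 0.08 and their smallest adjusted p was 0.589 in edgeR. In the authors' deposited table, which compares the genotypes over both experiments, the log2 fold changes of the 10 genes ran from -0.05 to 0.06 with standard errors of 0.04 to 0.08, and every adjusted p rounded to 1. The signs there matched those from edgeR for 9 of the 10 genes.

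**Figure D2:**
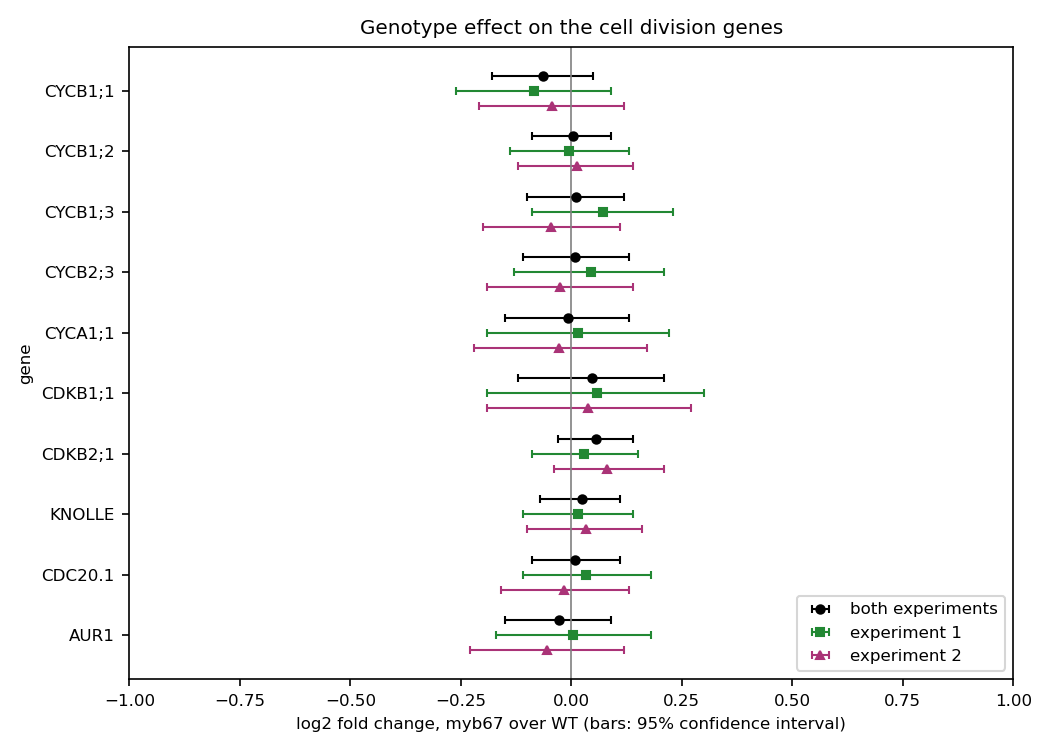
Log2 fold change of myb67 over WT for each of the 10 genes, over both experiments and within each, with 95% confidence intervals. Every interval crosses 0, and those over both experiments lie between -0.18 and 0.21.

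The rest of the division machinery was read from lists of 153 other genes, of which 148 were tested. None of the 148 was called by genotype over both experiments by edgeR, DESeq2 or limma-voom, where edgeR called 1.50% of all genes. The 0 calls lie near that small share. In edgeR 2 of the 148 had an unadjusted p under 0.05. The smaller was that of CKS1 (AT2G27960), a small subunit that binds cyclin-dependent kinases, with 0.12 on the log2 scale (SE 0.05, adjusted p = 0.571 by edgeR). The median of the 148 log2 fold changes was 0.02. In experiment 1, 0 were called, against 0.623% of all genes, and 5 had an unadjusted p under 0.05. The smallest was that of CYCA2;4 (AT1G80370), an A-type cyclin, at 0.21 (SE 0.07, edgeR adjusted p = 0.300). In experiment 2, 0 were called, against 1.33% of all genes, and 2 had an unadjusted p under 0.05. The smaller was that of AT5G59360, listed among the inhibitors of cyclin-dependent kinases, to which the reference gives no name. Its log2 fold change was 0.32 (SE 0.14, edgeR adjusted p = 0.455), and it was called with the replicate block in experiment 2 (0.34, edgeR adjusted p = 0.0454) but not with the block in both experiments (0.34, edgeR adjusted p = 0.0900). Its levels in experiment 2 were 7.45 to 12.9 CPM in WT and 10.6 to 14.7 CPM in myb67, which overlap. The close relatives of the members gave the same kind of values, with log2 fold changes by genotype of 0.06 for CDC20.2, -0.06 for AUR2, 0.03 for CDKB1;2, -0.01 for CDKB2;2 and -0.01 for CYCB1;4, and none of them was called. Of 10 genes of the DNA damage response tested, 0 were called by genotype, against 1.50% of all genes, and 2 had an unadjusted p under 0.05 in edgeR. These were RAD17, with a log2 fold change of -0.19, and PARP2, with 0.19. The share of all genes with an unadjusted p under 0.05 was not computed.

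Of the marker lists, only that of suberised cells held genes called by genotype over both experiments: 5 of its 7 genes, beside 1.50% of all genes. The lists were chosen with earlier results of these data known, so this count describes the list and does not test it. FACT, which joins caffeic acid to fatty alcohols, fell by 1.57 on the log2 scale in edgeR, and FAR4, a reductase that makes fatty alcohols, fell by 0.33. GPAT5, CYP86A1 and KCS2, enzymes of suberin precursors, rose by 0.35, 0.36 and 0.78. Of 15 markers of root meristem and lateral root primordium and of 13 markers of cambium, 0 were called by genotype. Of the 10 markers of green tissue, 3 were called by genotype within experiment 1, against 0.623% of all genes. All 3 were lower in myb67, and the list median was -1.26. Without WT replicates 3 and 6 of that experiment, 0 of the 10 were called and the median was -0.26. Those libraries were left out because these same markers were high in them, so this fit cannot say whether the markers differ by genotype.

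Between the experiments the 10 genes differed far more. This comparison was not one the study set out to make. Experiment 2 differed from experiment 1 in depth and in the form of the deposited counts, and these cannot be told apart from any difference in growth or handling. There was only this pair of experiments, so the standard errors, intervals and p-values measure the spread between libraries and not between experiments. Of the 10 genes, 9 were called and all 9 were higher in experiment 2, where 80.7% of all genes were called in either direction and 42.8% were called and higher. CYCA1;1 rose by 1.08 on the log2 scale (SE 0.07, 95% interval 0.94 to 1.22, edgeR adjusted p = 4.66e-13), or 2.11-fold. KNOLLE rose 1.91-fold (log2 0.93, SE 0.04, edgeR adjusted p = 2.89e-15), and CYCB1;2 and CDC20.1 each rose 1.77-fold. The kinases CDKB2;1, AUR1 and CDKB1;1 rose 1.66-fold, 1.59-fold and 1.53-fold. The smallest rises among called members were 1.30-fold for CYCB1;1 and 1.22-fold for CYCB1;3, and CYCB2;3 was not called (log2 0.03, 95% interval -0.09 to 0.15, edgeR adjusted p = 0.623). The median of the 10 was 0.70 on the log2 scale, against 0.05 for all genes tested, whose middle 50% ran from -0.42 to 0.51. For 7 of the 10 every library of experiment 2 lay above every library of experiment 1, as was so for 20.8% of all genes tested.

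**Figure D3:**
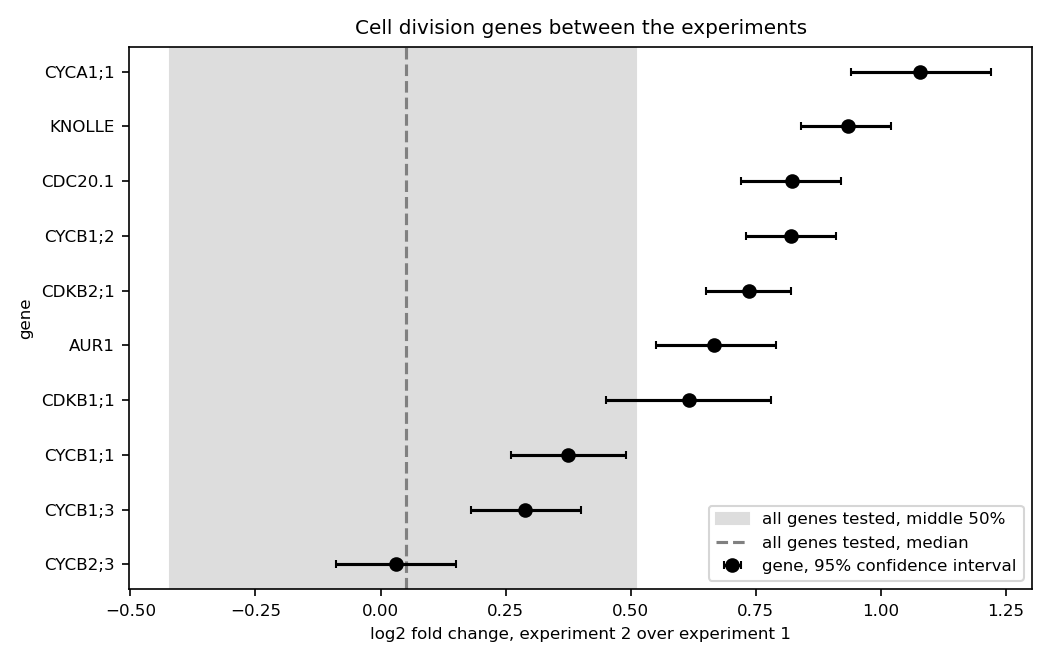
Log2 fold change of experiment 2 over experiment 1 for the 10 genes in order of size, with 95% confidence intervals, beside the median (dashed) and the middle 50% (grey) of all genes tested. CYCA1;1 is highest at 1.08, and the interval of CYCB2;3 crosses 0.

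The members were also compared within libraries, where no scaling of a whole library can move the values, though differences in counting could. Each gene's counts per kilobase were taken as a share of the sum over the 10 genes in the same library. The share of KNOLLE was 20.8% to 22.6% in the 12 libraries of experiment 1 and 23.6% to 25.9% in the 10 libraries of experiment 2, with no overlap. For CYCA1;1 the shares were 4.87% to 7.63% and 7.89% to 9.03%, again apart. The other B-type cyclins beside CYCB1;2 all had smaller shares in every library of experiment 2 than in any of experiment 1, and for the B2-type one the ranges were 5.28% to 6.63% and 3.32% to 4.13%. A share is relative to the other members, so it can fall while the level rises. CYCB1;1 and CYCB1;3 rose 1.30-fold and 1.22-fold in level between the experiments. The other 5 members overlapped in their shares. Shares within other sets of 10 genes were not computed, so how often theirs would not overlap is not known. By level, 80.7% of all genes were called between the experiments in edgeR.

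In each of the 5 lists of other genes of mitosis and its regulators, more genes were higher than lower in experiment 2, with medians that differed from list to list. Of the 20 genes of cytokinesis, 18 were higher in experiment 2 and 0 lower, with a median log2 fold change of 0.75. Among them were the cellulose synthase-like gene CSLD5 (log2 1.39, SE 0.07), TAN, which marks the division plane (1.34, SE 0.07), and the kinesins POK1 (1.16, SE 0.07) and POK2 (1.06, SE 0.07). Of 18 genes of the spindle, kinetochore and checkpoint, 16 were higher and 0 lower (median 0.41), with TPX2, which nucleates spindle microtubules, at 1.00 (SE 0.06). Of 17 genes of the anaphase-promoting complex and its regulators, 12 were higher and 2 lower (median 0.32), with the subunit APC11 at 1.11 and the activator CCS52A1 at -0.98 (SE 0.06). Of 7 MYB3R genes and partners tested, 6 were higher and 0 lower (median 0.27). MYB3R4, an activator that binds the MSA element, stood at 1.30 (SE 0.07), the other 5 that were higher at 0.16 to 0.35, and MYB3R1, which was not called, at 0.09. Of 6 other B-type cyclins, 5 were higher and 0 lower (median 0.58). Of 8 other A-type cyclins tested, only 3 were higher and 1 lower (median 0.07). Of 10 other cyclin-dependent kinases and their partners, 7 were higher and 2 lower (median 0.25).

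The lists of G1/S and DNA replication, of D-type cyclins and of inhibitors of cyclin-dependent kinases each held genes of both directions. Of 33 genes of G1/S and DNA replication, 4 were higher and 18 lower, with a median of -0.16, and the replication licensing factors CDT1A (-0.75, SE 0.06), ORC6 (-0.71, SE 0.09) and CDC6 (-0.71, SE 0.10) were among the lower ones. Of 9 D-type cyclins, which act in G1, 4 were higher and 4 lower. CYCD3;1 rose by 1.93 on the log2 scale (SE 0.07), from 40.2 to 150 CPM in the mean of WT, and CYCD1;1 was lower (-0.76, SE 0.07). Of 20 inhibitors of cyclin-dependent kinases, 10 were higher and 5 lower (median 0.22). Among the higher ones were AT5G59360 at 1.60, AT1G08180 at 1.33 and AT1G51355 at 1.32, of the SIAMESE-related family, and among the lower ones SMR1 (listed in the reference as LGO) of the same family at -1.15 (SE 0.08). Over all 148 division genes, 85 were higher and 32 lower, with a median of 0.24. Each of these counts stands beside the 42.8% of all genes that were called and higher in experiment 2 and the 37.9% that were called and lower. The counts of D-type cyclins in both directions and those of higher inhibitors and higher A-type cyclins lie near these shares. Of the 10 genes of the DNA damage response, 6 were higher and 1 lower, the latter PARP2 at -1.59 (SE 0.08).

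Markers of several tissues moved with the experiment as well, and their part in the values of the 10 genes was not tested. The counts of markers stand beside the 42.8% of all genes that were called and higher in experiment 2 and the 37.9% called and lower. All 13 markers of cambium were higher in experiment 2 (median log2 fold change 1.34), and their sum was 271 to 385 CPM in experiment 1 and 721 to 1130 CPM in experiment 2. WOX4 and ANT, transcription factors of the cambium, rose by 1.97 (SE 0.12) and 1.71 (SE 0.09), and PXY, the receptor kinase of the cambium, rose by 1.63 (SE 0.08). Of 15 markers of root meristem and lateral root primordium, 12 were lower and 3 higher (median -0.71), with sums of 145 to 195 CPM and 118 to 154 CPM. LBD16 and GATA23, genes of lateral root initiation, were lower by -1.79 (SE 0.13) and -3.14 (SE 0.31), while PLT7 was higher by 2.61 (SE 0.09). All 3 markers of phloem and 5 of 6 of xylem were higher. Of 10 markers of green tissue, 8 were higher and 0 lower. Of 7 root markers, 6 were lower and 1 higher (median -3.24), such as the root hair gene COBL9 at -3.65 (SE 0.25), while the sum of the list, which PYK10 dominates, was 10500 to 13000 CPM and 10500 to 13400 CPM. Of 4 genes of the shoot meristem only KNAT6 passed the filter, and STM, CLV3 and WUS did not.

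**Figure D4:**
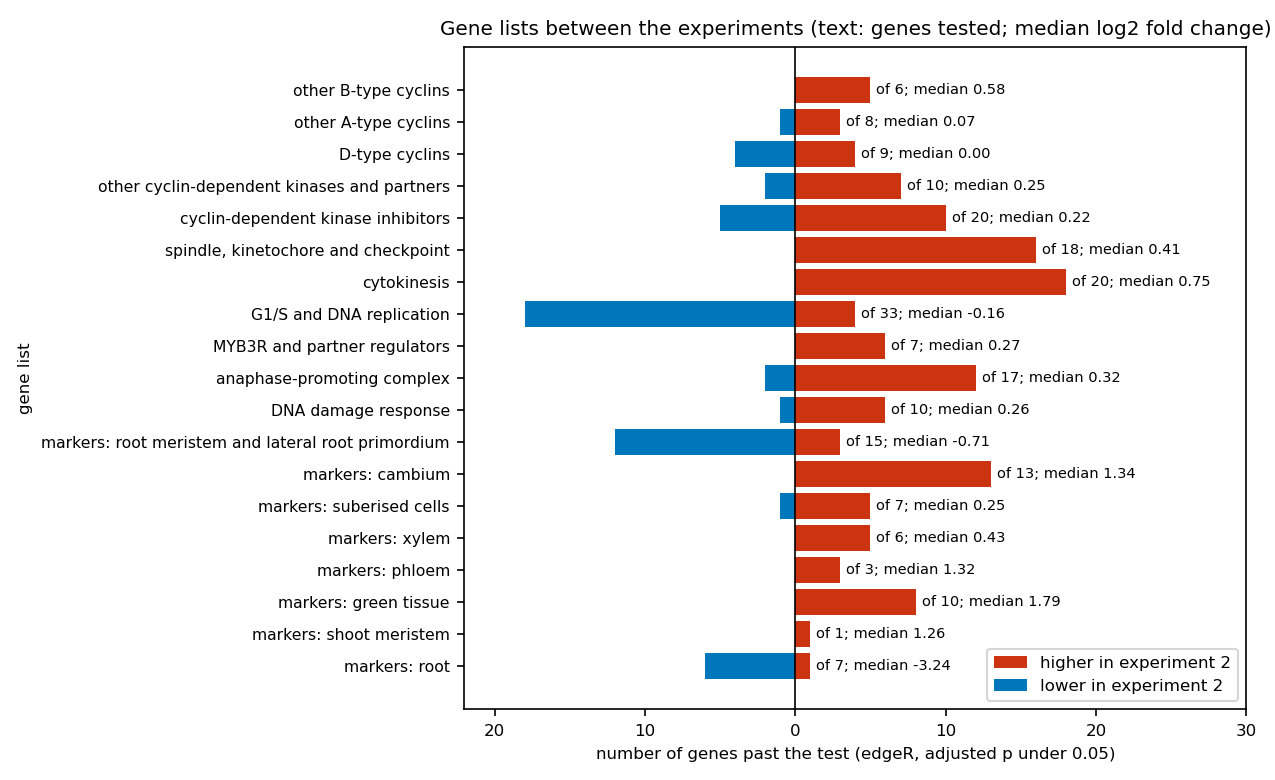
Number of genes of each list that were higher (right) or lower (left) in experiment 2 than in experiment 1 by the edgeR test, with the number tested and the median log2 fold change written beside the bars. Cytokinesis has 18 of 20 higher and cambium 13 of 13, whereas G1/S and DNA replication has 18 of 33 lower. Of all genes tested, 42.8% were called and higher and 37.9% called and lower.

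Reads of 6 members can also belong to a neighbour or relative. Of the runs of 50 bases in the CDC20.1 transcript, 31.4% also occur in CDC20.2, which itself rose between the experiments (log2 0.84, SE 0.06). The transcript of CYCB1;2 shares 11.5% of its runs with CYCB1;5 (AT1G34460), which rose by 1.79 (SE 0.10) at 10.3 CPM in experiment 2, and that of CYCB2;3 shares 17.3% with AT1G20590, which held at most 7 counts in any library. KNOLLE overlaps NPQ1 on the opposite strand over 31.0% of its runs, AUR1 overlaps PFK6 in the same way over 16.5%, and CDKB1;1 overlaps AT3G54190 over 1.65%. NPQ1 was at 7.07 CPM in WT of experiment 1 and at 13.2 CPM in WT of experiment 2, and KNOLLE at 51.3 and 97.3 CPM in the same groups. The sources used here do not say whether reads were counted by strand, so the share of reads from these partners is uncertain.

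Within the groups, the 10 genes tended to be high or low in the same libraries. Each library's log2 CPM was taken as a deviation from its group mean, and over the 22 libraries all 45 pairs of genes had a positive Pearson r, from 0.04 to 0.70 with a median of 0.45 (Spearman's rho 0.03 to 0.74, median 0.43). Without myb67 replicate 4 of experiment 1, the lowest library on average, and WT replicate 1 of experiment 2, the highest, 42 of the 45 were positive and the median was 0.34. Within experiment 1, 40 of the 45 were positive (r from -0.33 to 0.72, median 0.37), and within experiment 2, 42 were (r from -0.46 to 0.92, median 0.59). CYCB1;2 had the highest mean r with the others (0.55) and CDKB1;1 the lowest (0.30). The values share library, depth and scaling, and are given as a description.

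**Figure D5:**
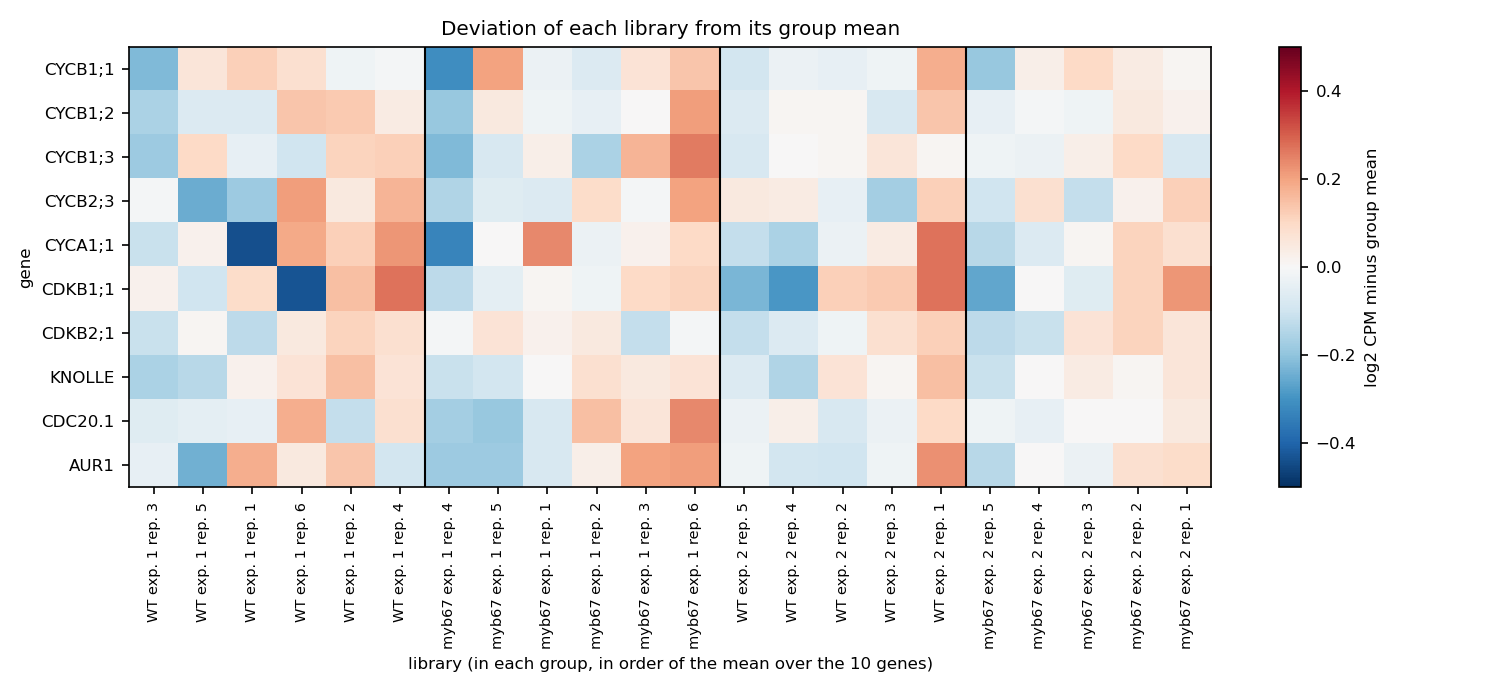
Deviation of each library from its group mean, in log2 CPM, for the 10 genes (rows) and 22 libraries (columns, ordered in each group by the mean over the genes). myb67 replicate 4 of experiment 1 has the lowest mean deviation (-0.181) and WT replicate 1 of experiment 2 the highest (0.158).

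The genes outside the set whose deviations followed the mean of the 10 most closely were ranked among the 20204 tested genes whose mean reached 1 CPM. The first was AT5G48460, annotated as an actin-binding protein with calponin homology domains, at r = 0.891 (rho 0.868), followed by AT5G04885, a glycosyl hydrolase, at 0.875 (rho 0.905). ROPGEF6, an exchange factor of ROP GTPases, and TUB9, a beta-tubulin, both had r = 0.864 (rho 0.860 and 0.886). AT4G21820, annotated as binding calmodulin, had 0.862, KCS11 and AT5G50420 0.852 each, and RABG3d 0.848. Without the pair of libraries named above, r for these 8 genes was between 0.769 (ROPGEF6) and 0.881 (TUB9). At the other end, r was -0.861 for AT1G80180, -0.847 for AT1G34630 and -0.836 for HAB1, a phosphatase of abscisic acid signalling. None of these 11 genes was called by genotype, and the log2 fold change between the experiments was 0.99 for AT5G48460 but 0.20 for TUB9 and -0.23 for KCS11.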

How the data were processed

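The authors deposited a count table of 33323 genes for the 22 libraries of messenger RNA. Its columns of experiment 1 hold expected counts, as deposited in steps of 0.5 (28.2% to 34.6% not whole), and those of experiment 2 hold raw counts. Neither is normalized. A second table, in which the authors compare the genotypes, gives each gene's log2 fold change, the standard error, an adjusted p-value and the average signal in scaled counts, as deposited. Per the submitters' processing notes, the tools were STAR 2.7.10a, Trimmomatic 0.39, DESeq2 1.40.1, FastQC and HOMER, and the build was TAIR10, without a role for any. The sources used here do not say how strand or multi-mapping reads were treated.

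Expected counts were rounded, genes were filtered with filterByExpr and libraries scaled by TMM, and the test was the quasi-likelihood F test in edgeR 4.0.16 (R 4.3.3), adjusted by Benjamini-Hochberg over all genes tested. A model with experiment and genotype gave the effect over both experiments and the gap between them, and the effects within experiments and their difference came from a model of the 4 group means. Standard errors and 95% intervals were computed from the fitted weights and the moderated dispersion, and log2 CPM for deviations used a prior count of 2. The scripts were tested on simulated data. DESeq2 1.42.0 and limma 3.58.1 served for alternatives, and Python 3.11.15 with matplotlib 3.10.9 for sequences and plots.

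The members and the gene lists were chosen with earlier results of these data known. Of each list, called genes (at most 6 by adjusted p) and close relatives of members could be named, with the 8 genes most like and the 3 least like the members' mean. Entries were kept under the list's name where the reference uses another symbol, except that 3 (MPS1, CAP-H and SOL2) were left out of all counts. By edgeR 0 of these 3 were called by genotype, and all 3 were higher in experiment 2 (log2 fold changes 0.55, 0.76 and 1.31). Alternatives were RLE and upper-quartile scaling, no filter and a stricter one, DESeq2, limma-voom, a robust prior, a replicate block, no experiment term, unrounded values, and leaving out libraries singly or in sets. Promoter windows and shared runs of 50 bases came from RefSeq TAIR10.1, a later release than the authors' build.

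Labels call the libraries replicates of about 40 seedlings each, and nothing says whether they came from separate plates, so p-values measure the spread between these libraries. No pair was a duplicate (lowest chi-square per gene 2.149 over 50 pairs). Deviations of same-numbered WT and myb67 libraries correlated across genes at 0.285 to 0.671 in experiment 2, which was taken as paired (over 0.1 for each pair), and at -0.158 to 0.043 in experiment 1, which was not. Libraries of unlike number correlated at -0.55 to 0.392 in experiment 2, so some unmatched pairs lay above the lowest matched pair.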

Additional observations from a re-analysis of the deposited data

Results flagged for a closer look

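A library stood away from the rest of its group for 2 of the 40 combinations of gene and group. Chance gives about 1 in 20 where combinations are independent, and these were not, since both cases lay in the same library. CYCB1;1 measured 21.1 CPM in WT replicate 1 of experiment 2, against 18.4 CPM in the next library of that group. AUR1 measured 39.8 CPM in the same library, against 33.4 CPM in the next. The share of the group's range taken by the gap was 0.767 and 0.787. The same library had the highest mean deviation over the 10 genes (0.158 on the log2 scale). Without it the log2 fold changes of myb67 over WT in experiment 2 were 0.001 for CYCB1;1 and 0.005 for AUR1, neither of them called.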

How the results depend on the processing

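No call on any of the 10 genes changed under the other settings: 9 stayed called between the experiments under 34 of them, and 0 by genotype under 35, of which the fit with no experiment term gave only the value over both experiments. The smallest adjusted p of a member by genotype was 0.485. Signs turned only among values that were never called. Over both experiments, the log2 fold change of myb67 over WT turned to -0.002 for CYCB1;2 with upper-quartile scaling, and for CYCB1;3 to -0.001 with DESeq2 and -0.009 with limma-voom. In experiment 1 it turned for AUR1 to -0.002 with upper-quartile scaling, -0.004 with no filter and -0.001 with the replicate block in both experiments, for CYCA1;1 to -0.004 with that block, and for CYCB1;2 to 0.006 with limma-voom. Without the 3 shallowest libraries, which are replicate 1 of WT and replicates 3 and 4 of myb67 in experiment 1, CYCB2;3 turned to -0.015 between the experiments, CYCB1;2 to 0.019 in experiment 1, and the difference of the genotype effects to -0.013 for CYCB1;1 and -0.008 for CYCB1;2. Without WT replicates 3 and 6 of experiment 1, which were high in the green tissue markers, the value over both experiments turned to -0.001 for CYCB1;2 and -0.030 for CYCB1;3. In the same setting the value in experiment 1 turned to -0.007 for CYCB1;3, -0.034 for CDKB1;1 and -0.011 for KNOLLE, and the difference to 0.072 for CDKB1;1. The cause was not tested.

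Leaving out 1 library at a time turned the sign of 28 of 50 values. Over both experiments these ranged from -0.022 to 0.019 for CYCB1;2, -0.018 to 0.025 for CYCB2;3, -0.022 to 0.027 for CDC20.1, -0.025 to 0.023 for CYCB1;3, -0.033 to 0.029 for CYCA1;1 and -0.055 to 0.004 for AUR1. In experiment 1 they ranged from -0.04 to 0.065 for CYCA1;1, -0.056 to 0.027 for CYCB1;2, -0.019 to 0.047 for KNOLLE, -0.05 to 0.043 for AUR1, -0.008 to 0.083 for CYCB2;3, -0.014 to 0.12 for CDKB1;1 and -0.024 to 0.076 for CDC20.1. In experiment 2 they ranged from -0.07 to 0.001 for CYCB1;1, -0.071 to 0.004 for CYCB2;3, -0.067 to 0.043 for CYCA1;1, -0.036 to 0.008 for CDC20.1, -0.081 to 0.005 for AUR1, -0.012 to 0.046 for CYCB1;2, -0.03 to 0.108 for CDKB1;1 and -0.002 to 0.069 for KNOLLE. For the difference of the genotype effects they ranged from -0.094 to 0.029 for CYCA1;1, -0.016 to 0.066 for CYCB1;2, -0.017 to 0.054 for KNOLLE, -0.086 to 0.051 for CDKB1;1, -0.009 to 0.085 for CYCB1;1 and -0.094 to 0.005 for CDC20.1. Between the experiments the range was -0.003 to 0.048 for CYCB2;3.

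Counts over all genes moved more than the members did. The genes called by genotype over both experiments numbered 326, and 83 with no experiment term. Those in experiment 1 numbered 135, 272 with DESeq2, and 81 without the WT pair high in green tissue markers. The difference was called for 15 genes, 43 with DESeq2, 6 with limma-voom, 6 without the 3 shallow libraries and 8 without that WT pair. With the replicate block in both experiments the counts were 231 in experiment 1, 980 in experiment 2 and 516 for the difference, and with the block in experiment 2 only they were 280, 1050 and 573. Of the division genes, AT5G59360 was called in experiment 2 with the block there only, and none was called with the block in both experiments. The division genes called between the experiments numbered 110 to 119 over all settings, against 117. Leaving out 1 library gave 192 to 509 genes in experiment 2. With no filter the median of all genes between the experiments was 0.37 in place of 0.05, as 32747 genes were tested. A single member held as few as 38.5 counts, in WT replicate 1 of experiment 1, while the standard errors of the genotype effect were 0.06 to 0.12 for the members in experiment 1 and 0.06 to 0.11 in experiment 2.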
